A study of Mus musculus with 6 samples.

Results

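The type I interferon effector genes are the genes that cells switch on in response to interferon alpha and beta. A list of 37 such genes was taken, and every probe whose platform annotation carried one of these symbols was included. This gave 71 probes for 36 of the 37 genes, out of 34885 probes with a single symbol for 19057 genes. No probe carried the symbol Ifi44, so Ifi44 was not analysed here. The members were compared between 3 arrays labelled Klf4-deficient and 3 control arrays. The arrays labelled Klf4-deficient are labelled as knockout and the controls as wild type. In both groups the leukemia, T cell acute lymphoblastic leukemia (T-ALL), had been induced by NOTCH1 and transplanted, and the mice are labelled male. From the bone marrow, cells positive for GFP, CD4 and CD8 were sorted 4 weeks after transplantation, and their total RNA was hybridised to Illumina bead arrays, 1 array per sample. The deletion's driver, the strain, the age of the mice and the number of mice behind a sample are not stated in the labels. The p-values therefore measure only the spread between these samples, which may be technical.

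Type I interferons bind the receptor formed by Ifnar1 and Ifnar2, whose kinases Jak1 and Tyk2 activate Stat2. Together with Irf9, Stat2 is part of a complex that binds a sequence called the interferon-stimulated response element (ISRE) in the promoters of its targets. The targets include sensors of foreign nucleic acid, enzymes and membrane proteins that block steps of viral replication, and the ISG15 system, which attaches a ubiquitin-like protein to other proteins. T cells can respond to type I interferon, as can the macrophages and other cells of the bone marrow.

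The arrays differed in ways that bear on the members. Signals are given in units of the deposited linear scale, and a probe counted as above background past 21.9 to 23.7 units, a limit set for each array from its values below 0. Differences are on the quantile-normalized log2 scale, arrays labelled Klf4-deficient minus controls, for the brightest probe of each gene, with p-values adjusted over all genes. The sort markers Cd4 and Cd8b1 were above background on all 6 arrays, while the Cd8a probe was above it on 1 of 3 arrays labelled Klf4-deficient and on 3 of 3 control arrays. The mean probe signal was 359.5 on array 3 labelled Klf4-deficient and between 417.3 and 445.1 on the other arrays. That array also stood apart on the first principal component, which held 39.1% of the variance. Of 3 Klf4 probes, 2 gave no signal past the background limit anywhere. The brightest Klf4 probe gave 80.6, 46 and 85.4 units in the arrays labelled Klf4-deficient and 44, 18.4 and 24.6 units in controls (log2 difference 1.03 ± 0.33 SE, adjusted p = 0.571 from limma). The direction is opposite to that of a loss of Klf4 RNA, but the difference did not pass when adjusted over all genes. Whether this probe lies within the deletion is not known, and which cells gave the signal was not tested. The probe therefore cannot decide whether the labels hold, and the arrays are named by their labels throughout.

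The promoters of the members were inspected first, since many of these genes are known targets of the same complex. RefSeq windows from 250 bases before to 50 bases after the annotated transcript start (build GRCm38.p6) were matched for 26 of the 36 measured members, and Usp18 was among the 10 not matched. The core of the ISRE was searched as GAAANNGAA on both strands. It was present in at least 1 window of 14 of the 26 members (53.8%), against 2638 of 27025 genes in the whole table (9.76%). Among members whose groups did not overlap, with the arrays labelled Klf4-deficient higher, 6 of 12 had a match, and among the other members 8 of 14. The gamma-activated site, another element of interferon-responsive promoters, was searched as TTCNNNGAA, which reads the same on both strands. It was found in 8 of the 26 members (30.8%) and in 9.55% of all genes. A match is only a match of letters, and the binding of a factor was not measured.

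The promoters of 4 members are shown, those with an ISRE core match and the smallest unadjusted p of the comparison below. They lie at chr4:156200769-156201068 (minus strand) for Isg15, chr19:34583279-34583578 (plus strand) for Ifit3, chr3:89730468-89730767 (plus strand) for Adar and chr11:88999153-88999452 (plus strand) for Trim25. Each reads 5′ to 3′ along the gene, and capitals mark the matches on either strand.
Isg15: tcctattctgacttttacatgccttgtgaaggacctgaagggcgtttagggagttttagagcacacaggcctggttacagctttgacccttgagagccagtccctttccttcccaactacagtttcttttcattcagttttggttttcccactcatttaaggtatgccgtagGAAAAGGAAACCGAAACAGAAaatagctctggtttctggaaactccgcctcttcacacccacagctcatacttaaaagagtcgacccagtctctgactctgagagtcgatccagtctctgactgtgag
Ifit3: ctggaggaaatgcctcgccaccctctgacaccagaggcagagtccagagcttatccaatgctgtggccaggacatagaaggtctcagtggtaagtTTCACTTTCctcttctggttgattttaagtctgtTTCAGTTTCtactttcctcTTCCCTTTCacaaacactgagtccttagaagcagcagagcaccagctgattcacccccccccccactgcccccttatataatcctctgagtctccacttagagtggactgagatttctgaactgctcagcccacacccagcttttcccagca
Adar: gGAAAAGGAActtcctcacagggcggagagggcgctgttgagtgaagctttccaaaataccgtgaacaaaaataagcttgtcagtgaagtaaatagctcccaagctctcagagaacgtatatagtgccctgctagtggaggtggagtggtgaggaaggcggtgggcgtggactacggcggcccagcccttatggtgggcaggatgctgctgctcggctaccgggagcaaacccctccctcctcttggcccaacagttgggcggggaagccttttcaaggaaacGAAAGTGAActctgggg
Trim25: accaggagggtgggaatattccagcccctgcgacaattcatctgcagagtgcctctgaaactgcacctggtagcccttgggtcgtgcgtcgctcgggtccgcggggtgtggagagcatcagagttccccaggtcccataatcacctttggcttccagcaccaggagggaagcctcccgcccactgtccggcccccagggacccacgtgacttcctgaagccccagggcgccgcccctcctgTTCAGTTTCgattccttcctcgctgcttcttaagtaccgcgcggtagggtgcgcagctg
In Isg15 the 3 matches overlapped and formed a single run, whose first base lay at -78 relative to the annotated start at 0. In Ifit3 the 3 matches lay apart, with first bases at -155, -121 and -102, all on the minus strand of the gene. In Trim25 the single match, at -9, reached the base before the start. In Adar, shown for the 1 of its 3 windows that held a match, the matches lay near both ends of the window, at -249 and 33.

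**Figure D1:**
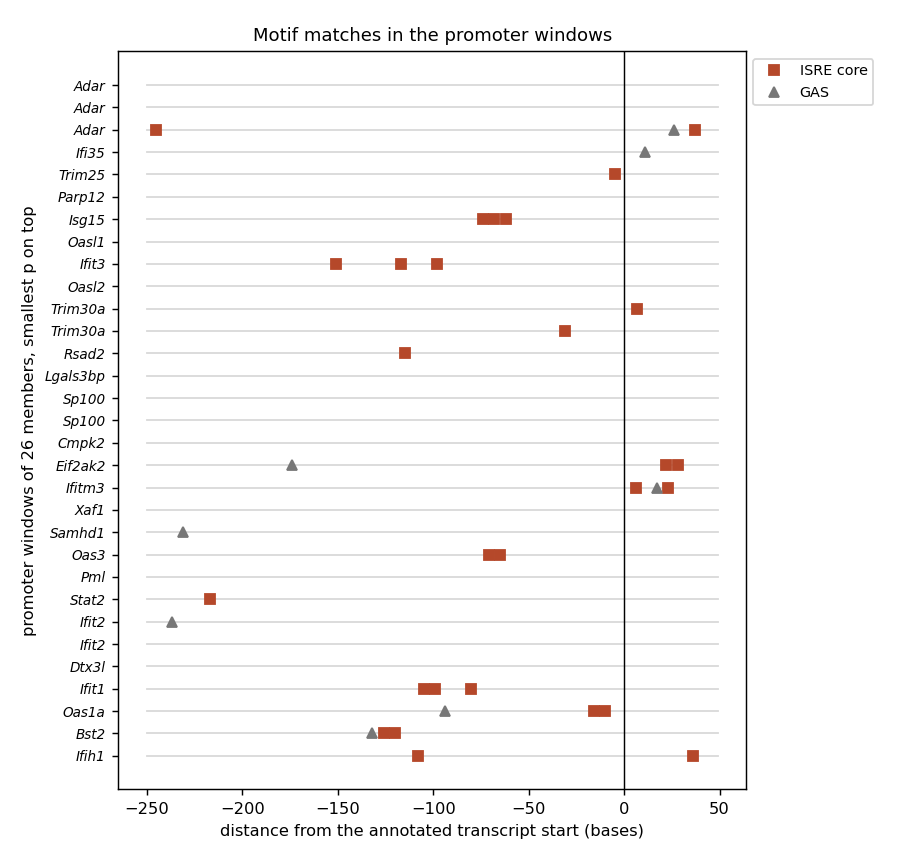
Positions of ISRE core matches (squares) and gamma-activated site matches (triangles) along the promoter windows of 26 members, in bases from the annotated transcript start, with the member of smallest unadjusted p on top. Matches of the ISRE core occur in members at the top and at the bottom of the order, and a member with several RefSeq starts has several lines.

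No member passed when adjusted over all genes, but the members as a list lay higher in the arrays labelled Klf4-deficient. Their median log2 difference was 0.35, from -0.16 to 1.64, against a median of 0 over all genes. The difference was above 0 for 28 members, below 0 for 7 and 0 for Ifih1, whose signal was below 0 on every array. In limma 0 of 36 members passed at an adjusted p of 0.05, where 0.0105% of all genes passed as higher and 0% as lower. At an unadjusted p under 0.05, 15 members were higher, against 3.51% of all genes, and 0 members were lower, against 4.09%. This count was 8 without array 2 labelled Klf4-deficient, 8 without control array 2 and 7 without control array 3, where 3.5%, 2.73% and 2.5% of all genes were higher at that p. The groups did not overlap, with the arrays labelled Klf4-deficient higher, for 18 members, against 5.48% of all genes, and with them lower for 1 member, Sp100, against 6.09%. These values are on the normalized log2 scale. On the scale of the deposited signals 12 of the 18 kept groups that did not overlap. The exceptions, Trim25, Adar, Ifi35, Trim30a, Lgals3bp and Parp14, rest on the normalization between arrays. Of the 36 members, 25 were above background on all 6 arrays and 5 on none (called dim below). Another 5 were above it on all 3 arrays labelled Klf4-deficient but not on all 3 controls. In a bulk sample, fewer cells of a type and less RNA per cell cannot be told apart.

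**Figure D2:**
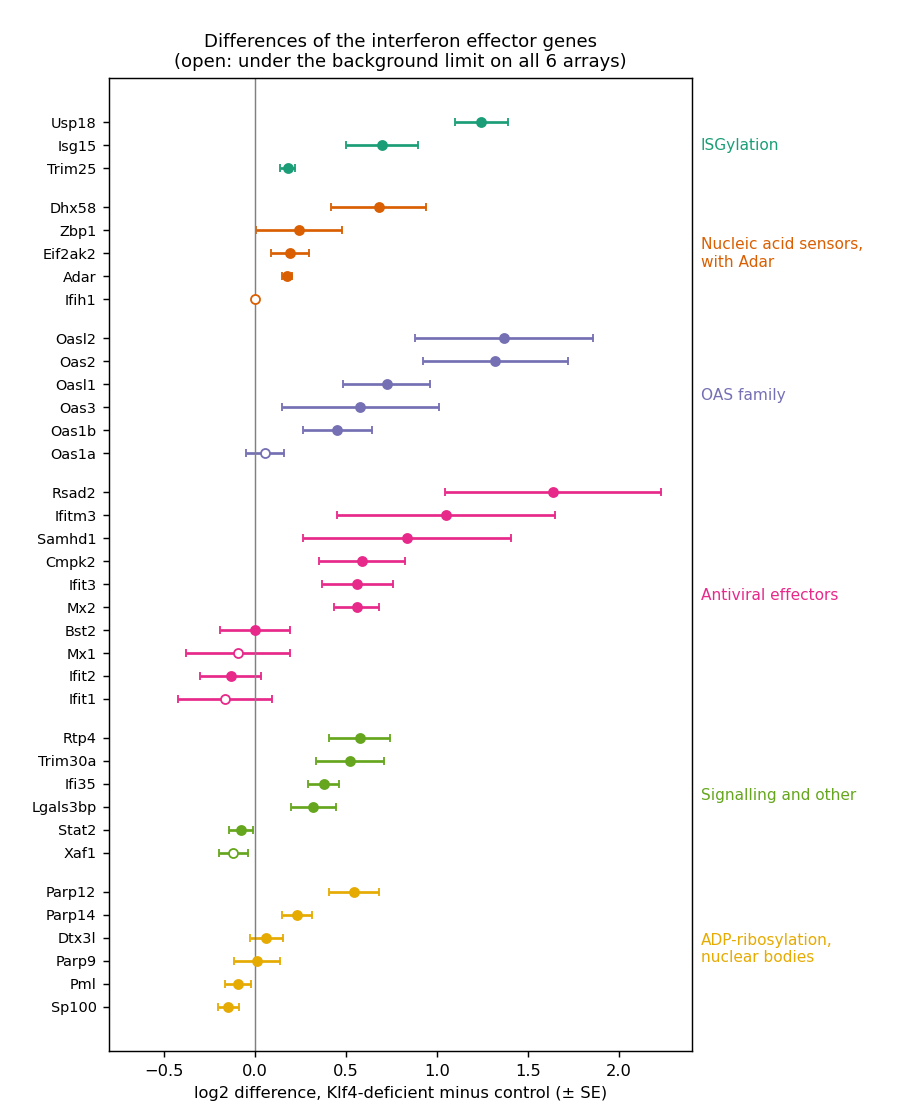
Log2 differences of 36 members, arrays labelled Klf4-deficient minus controls, with standard errors, grouped by role; open circles mark the 5 members under the background limit on all 6 arrays. The differences run from -0.16 for Ifit1 to 1.64 for Rsad2, and the ADP-ribosylation and nuclear body group has a median of 0.04.

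The ISGylation genes, Isg15, Usp18 and Trim25, were higher in all 3 arrays labelled Klf4-deficient on the normalized scale. Thus 3 of 3 were higher without overlap, against 5.48% of all genes. Usp18 encodes the protease that removes ISG15 from proteins and also restrains signalling from the interferon receptor. Its signal was 420.3, 535.5 and 407.5 units in arrays 1, 2 and 3 labelled Klf4-deficient, against 222, 150.2 and 219.8 units in controls 1, 2 and 3. All 3 arrays labelled Klf4-deficient lay well above every control, at similar levels. The log2 difference of Usp18 was 1.24 ± 0.15 (SE, unadjusted p = 4.78e-04, adjusted p = 0.312 from limma), the smallest p among the members. The second Usp18 probe differed by 0.85 ± 0.18, also without overlap. Its controls, at 23.9, 24.6 and 22.4 units, lay near the background limit, and 2 of 3 were above it. Isg15 encodes the ubiquitin-like protein itself. Its signal was 479, 738.2 and 645 units in the arrays labelled Klf4-deficient, against 383.5, 405.5 and 405.7 units in controls. The controls were close together, and array 1 labelled Klf4-deficient was the nearest to them. The difference was 0.70 ± 0.20 (SE, adjusted p = 0.537). Trim25 is a ubiquitin ligase of RNA sensing that attaches ISG15 in human cells. Its signal was 1639, 1617.2 and 1457.4 units in the arrays labelled Klf4-deficient, against 1564.1, 1383.1 and 1545.5 units in controls, so the deposited signals overlapped. After normalization Trim25 differed by 0.18 ± 0.04 (SE, adjusted p = 0.478).

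Other genes of the ISG15 system gave 0 of 2 past the adjusted threshold (0.0105% of all genes higher, 0% lower). At an unadjusted p under 0.05 they also gave 0 (3.51% higher, 4.09% lower), with Herc6 not measured. Without overlap 1 of 2 was higher, against 5.48% of all genes. Ube2l6, the enzyme that hands ISG15 to its ligases, had 86.9, 115.3 and 353.3 units in the arrays labelled Klf4-deficient, against 33.7, 56.9 and 69.6 units in controls. The groups did not overlap, and array 3 stood far above the others (log2 difference 1.42 ± 0.63 SE, adjusted p = 0.729 from limma). Uba7, the enzyme that activates ISG15, differed by 0.05 ± 0.10. The genes that attach and remove ISG15 therefore ranged from 0.05 for Uba7 to 1.42 for Ube2l6.

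**Figure D3:**
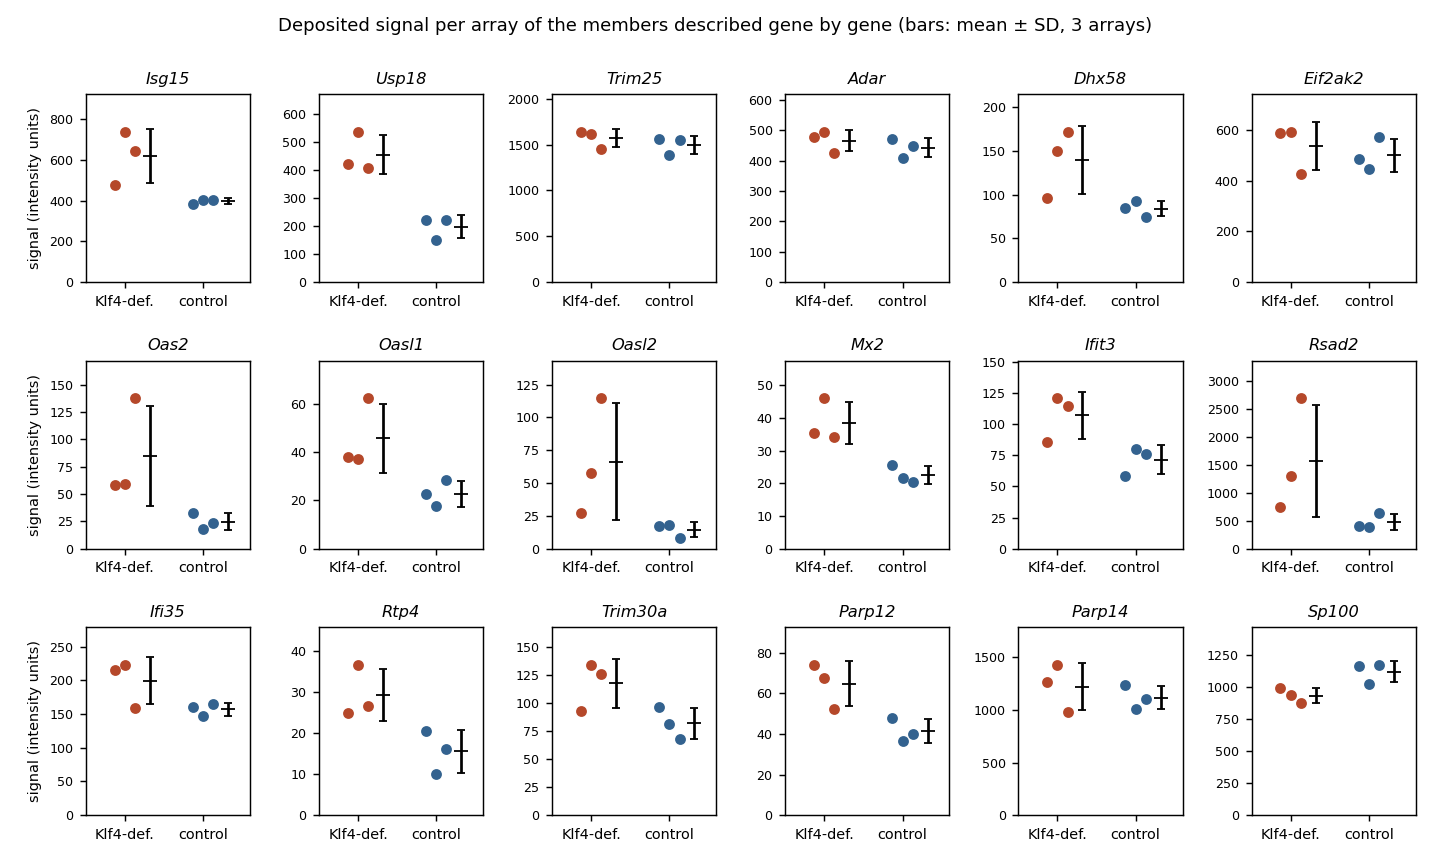
Deposited signal per array of 18 members, with the arrays labelled Klf4-deficient on the left and controls on the right of each panel, points in replicate order and bars for the mean ± SD of 3 arrays; each panel has its own axis from 0. Usp18 shows 3 similar values above every control, while Rsad2, Oas2 and Oasl2 are led by array 3 labelled Klf4-deficient.

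Of the 5 sensors of nucleic acid, 2 were higher without overlap on the normalized scale, Dhx58 and Adar, against 5.48% of all genes. Dhx58 encodes LGP2, a helicase that tunes the response of MDA5 to double-stranded RNA. Its signal was 96.1, 149.8 and 171.6 units in the arrays labelled Klf4-deficient, against 85, 92.1 and 74.9 units in controls. Array 1 labelled Klf4-deficient was only just above the highest control. The difference was 0.68 ± 0.26 (SE, unadjusted p = 0.0501, adjusted p = 0.658 from limma), and a second Dhx58 probe above background on all arrays differed by 0.57 ± 0.18. Adar, which edits double-stranded RNA, had 478.4, 494.9 and 426 units in the arrays labelled Klf4-deficient, against 471.5, 410.5 and 447.8 units in controls. The deposited signals overlapped, and the normalized difference was small, at 0.18 ± 0.03 (SE, adjusted p = 0.395). The 3 other Adar probes above background on all arrays differed by 0.15 ± 0.09, 0.15 ± 0.10 and 0.05 ± 0.07, none without overlap.

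Eif2ak2 encodes PKR, the kinase that halts translation on binding double-stranded RNA. It had 590.3, 593.1 and 426.7 units in the arrays labelled Klf4-deficient, against 484.7, 445.2 and 573.3 units in controls, and the groups overlapped (0.19 ± 0.11 SE, adjusted p = 0.770 from limma). Zbp1, a sensor of Z-form nucleic acid, also overlapped, at 0.24 ± 0.23. Ifih1, which encodes MDA5, was dim on all 6 arrays.

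The OAS family includes enzymes that sense double-stranded RNA and through their product activate RNase L. Of its 6 members 3 were higher without overlap, against 5.48% of all genes. Oas2 had 58.4, 58.9 and 137.6 units in the arrays labelled Klf4-deficient, against 32.7, 17.5 and 23.6 units in controls, of which 2 of 3 were above background. All 3 arrays labelled Klf4-deficient were higher, and array 3 was the highest (1.32 ± 0.40 SE, adjusted p = 0.547 from limma). Oasl1, which in mouse restrains the translation of Irf7, had 37.9, 37.3 and 62.4 units in the arrays labelled Klf4-deficient, against 22.8, 17.5 and 28.3 units in controls. It was above background on 1 of 3 controls, and array 3 labelled Klf4-deficient was again the highest (0.72 ± 0.24 SE, adjusted p = 0.581).

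Oasl2, an OAS-like protein with ubiquitin-like domains, had 26.8, 57.5 and 114.5 units in the arrays labelled Klf4-deficient, against 17.5, 18 and 8 units in controls. All 3 controls were under the background limit, so the fold is a bound: Oasl2 was at least 2.0-fold higher (adjusted p = 0.624 from limma). Such a bound sets the mean of the brighter group against the lowest signal above background on each control array, on the normalized scale. It does not allow for the spread between the arrays of the brighter group. Oas1b differed by 0.45 ± 0.19 and overlapped. Oas3 was above background on 1 array labelled Klf4-deficient alone, and Oas1a on none.

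The antiviral effectors ranged most widely, with 4 of 10 measured members higher without overlap, against 5.48% of all genes. Rsad2 encodes viperin, an enzyme that makes a chain-terminating nucleotide, and had the largest log2 difference of the 36 members. Its signal was 736.8, 1290.2 and 2682.9 units in the arrays labelled Klf4-deficient, against 405.8, 389.7 and 631.7 units in controls. The arrays labelled Klf4-deficient differed widely among themselves, and the lowest was close to control array 3. The mean was 1570 ± 1003 units in the arrays labelled Klf4-deficient and 475.7 ± 135 units in controls (SD, n = 3 each). The log2 difference was 1.64 ± 0.59 (SE, adjusted p = 0.634 from limma). It was 1.07 without array 3 labelled Klf4-deficient and 0.69 for array 1 alone against the controls.

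Mx2, a GTPase that in mouse acts on viruses in the cytoplasm, had 35.5, 46 and 34.3 units in the arrays labelled Klf4-deficient, against 25.6, 21.6 and 20.4 units in controls. It was above background on 1 of 3 controls, and the arrays labelled Klf4-deficient were similar to each other (0.56 ± 0.12 SE, adjusted p = 0.447 from limma). Ifit3, a partner of the RNA-binding IFIT proteins, had 85.7, 120.9 and 115 units in the arrays labelled Klf4-deficient, against 58.1, 80.5 and 75.9 units in controls. Array 1 labelled Klf4-deficient lay just above the highest control (0.56 ± 0.20 SE, adjusted p = 0.608). A second Ifit3 probe was above background on 1 array labelled Klf4-deficient and on 0 controls, so it measured no difference. Ifit2, of the same family, was not higher, at -0.13 ± 0.17 for its brightest probe and -0.07 ± 0.17 for the other. Ifit1 and Mx1 were dim on all 6 arrays.

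Cmpk2, Ifitm3 and Samhd1 are given by array as well, a choice made after their values were seen. Cmpk2, a nucleotide kinase of mitochondria, had 128.3, 132.9 and 192.2 units in the arrays labelled Klf4-deficient, against 92.5, 105.2 and 104.3 units in controls. The groups did not overlap (0.59 ± 0.24 SE, adjusted p = 0.682 from limma). Ifitm3, which blocks the fusion of viruses with endosomes, had 1280.8, 1964.9 and 4752.8 units in the arrays labelled Klf4-deficient, against 1295.3, 1251.5 and 1023 units in controls. Array 1 lay among the controls and array 3 far above them (1.05 ± 0.60 SE, adjusted p = 0.783). Samhd1, an enzyme that breaks down the building blocks of DNA, had 79.6, 153.8 and 347 units in the arrays labelled Klf4-deficient, against 104.1, 87 and 85.8 units in controls. Array 1 labelled Klf4-deficient was the lowest of the 6 (0.84 ± 0.57 SE, adjusted p = 0.783). Bst2, the tetherin that holds budding viruses at the cell surface, differed by 0.0005 ± 0.19.

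Of the signalling genes and others without a shared activity, 4 of 6 were higher without overlap, against 5.48% of all genes. Ifi35 forms complexes with Nmi in the interferon response. It had 216.1, 223 and 159.1 units in the arrays labelled Klf4-deficient, against 160.1, 146.5 and 165.2 units in controls. On the deposited scale array 3 labelled Klf4-deficient lay within the controls, and after normalization it lay above them (0.38 ± 0.08 SE, adjusted p = 0.447 from limma). Rtp4, a chaperone of receptors, had 24.9, 36.6 and 26.5 units in the arrays labelled Klf4-deficient, against 20.5, 10 and 16.2 units in controls, all under the background limit. It was at least 1.19-fold higher (adjusted p = 0.543). Trim30a, which in mouse restrains NF-kappaB signalling, had 92.8, 134.3 and 126.6 units in the arrays labelled Klf4-deficient, against 96.4, 81.6 and 68.2 units in controls. Array 1 labelled Klf4-deficient lay within the controls on the deposited scale (0.52 ± 0.19 SE, adjusted p = 0.626). Lgals3bp, a secreted galectin-binding glycoprotein, differed by 0.32 ± 0.12. Stat2, the interferon-specific part of the activated complex, differed by -0.07 ± 0.07 and overlapped, and Xaf1 was dim on all arrays.

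The genes of ADP-ribosylation and of nuclear bodies had a median difference of 0.04, with 2 of 6 higher without overlap (5.48% of all genes) and 1 lower (6.09%). Parp12 encodes a mono-ADP-ribosyltransferase with antiviral activity. It had 74, 67.8 and 52.3 units in the arrays labelled Klf4-deficient, against 48, 36.4 and 40.2 units in controls. All 3 were higher, and here array 1 labelled Klf4-deficient was the highest (0.55 ± 0.14 SE, adjusted p = 0.50 from limma). Parp14, of the same enzyme family, had 1261.7, 1428.4 and 979.5 units in the arrays labelled Klf4-deficient, against 1236.4, 1009.7 and 1108.9 units in controls. The deposited signals overlapped (0.23 ± 0.08 SE, adjusted p = 0.626). Parp9 and Dtx3l, whose products work as a pair of ADP-ribosyltransferase and ubiquitin ligase, differed by 0.01 ± 0.12 and 0.06 ± 0.09.

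Sp100, a component of nuclear bodies, was the exception in direction. It had 990.6, 938.2 and 874.4 units in the arrays labelled Klf4-deficient, against 1163.1, 1025.3 and 1174.5 units in controls. All 3 were lower (-0.14 ± 0.06 SE, adjusted p = 0.682 from limma), and the difference was -0.09 without array 2 labelled Klf4-deficient. A second Sp100 probe above background on all arrays differed by 0.09 ± 0.23. Pml, the organizer of these bodies, differed by -0.09 ± 0.07 and overlapped. Of 13 further probes of members above background on all arrays of a group, 11 had the sign of the member's brightest probe, and those of Dtx3l and Sp100 had the opposite one. The probes of Usp18, Oas1b and Samhd1 entered this count through the arrays labelled Klf4-deficient alone, and a Pml probe through the controls alone. Entry through 1 group favours a sign, so the count is not read as support. Of all 35 further probes 5 were higher without overlap and 0 lower, where 4.5% of every probe fitted on its own were higher. The 5 belonged to Usp18, Dhx58, Oas1b and Oasl1. Of the Oasl1 probes, 1 was under the background limit on every array and the other on every control. The Oas1b probe overlapped on the deposited scale.

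The members did not share 1 order over the arrays labelled Klf4-deficient. Array 3 was the highest of the 6 for 16 members, among them Rsad2, Oas2, Oasl2, Ifitm3 and Samhd1. Array 2 was the highest for 7, among them Usp18, Mx2 and Rtp4, and array 1 for 6, among them Parp12. Each of the 3 arrays lay above every control for more members than the share of all genes that did so. Array 1 lay above every control for 22 of 36 members (23.9% of all genes), array 2 for 24 (23.2%) and array 3 for 25 (26.4%). The median of the members relative to the control mean was 0.18, 0.32 and 0.40 in arrays 1, 2 and 3 labelled Klf4-deficient and between -0.03 and 0.05 in controls.

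**Figure D4:**
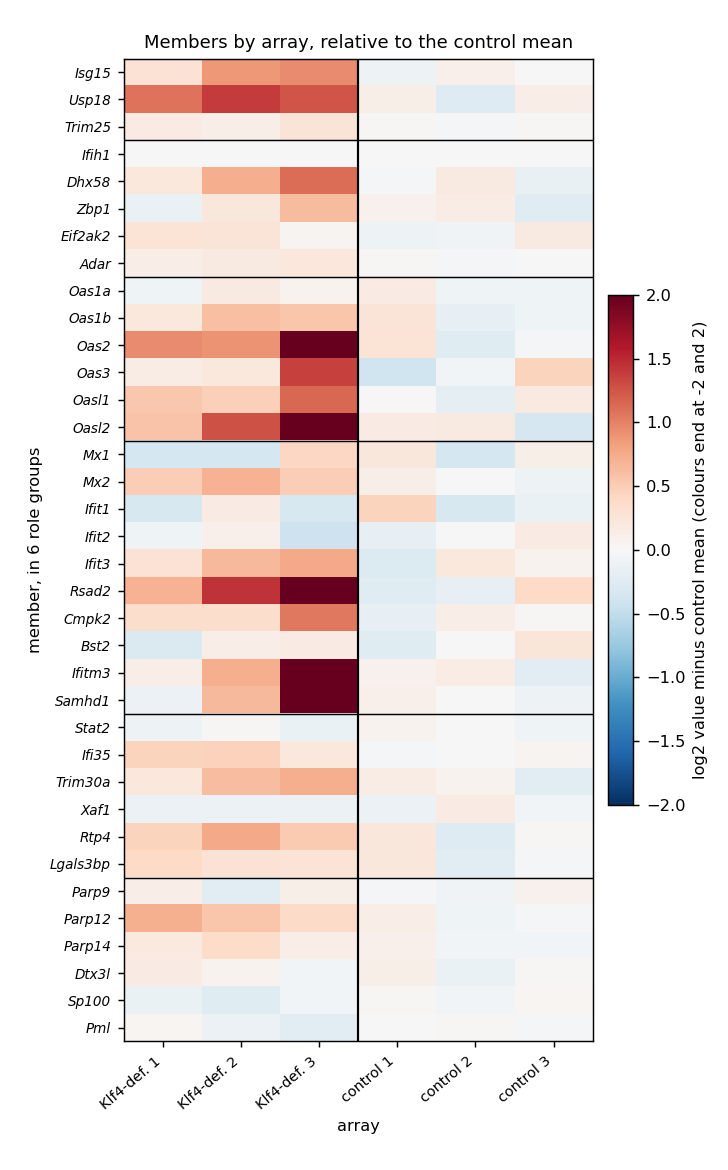
Normalized log2 values of 36 members (rows, in 6 role groups) on each array, relative to the mean of the controls; columns are 3 arrays labelled Klf4-deficient, then 3 controls. Usp18 is similar in the 3 arrays labelled Klf4-deficient (1.08, 1.39 and 1.26), whereas Ifitm3 and Samhd1 reach 2.29 and 1.99 in array 3 and are near the controls in array 1.

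The medians of the macrophage and of the erythroid markers rose from array 1 to array 3 labelled Klf4-deficient, as did the members' median. Array 3 was the highest of the 6 for 16 of the 36 members, so not every member followed this order. Of 19 measured macrophage markers, 8, 13 and 17 lay above every control in arrays 1, 2 and 3, and of 14 erythroid markers 5, 12 and 12, against 23.9%, 23.2% and 26.4% of all genes. The median of the macrophage markers, relative to the control mean, was 0.17, 0.75 and 1.23 in arrays 1, 2 and 3 labelled Klf4-deficient, against -0.17 to 0.20 in controls. Of the 19 measured, 8 were higher without overlap (5.48% of all genes) and 0 lower (6.09%). At an unadjusted p under 0.05, 6 of these markers were higher (3.51% of all genes). Their summed signal was 5438.5 to 13116.8 units in the arrays labelled Klf4-deficient and 4553.8 to 6129.1 units in controls, and Cd163, Cd5l and Cybb were dim on every array. Erythroid markers lay at 0.21, 1.26 and 2.29 in arrays 1, 2 and 3 labelled Klf4-deficient, against -0.40 to 0.22 in controls. Of the 14 erythroid markers, 5 were higher without overlap (5.48% of all genes) and 0 lower (6.09%). Their summed signal was 43093.4 to 59073.7 units in the arrays labelled Klf4-deficient, against 35257.3 to 43108.2 units in controls, with Epb42 and Rhd dim on every array.

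In array 1 labelled Klf4-deficient the macrophage markers above every control were C1qb, C1qc, Adgre1, Mrc1, Csf1r, Mertk, Fcgr1 and Marco, and the erythroid ones Hba-a1, Alas2, Tfrc, Add2 and Ermap. Of these, Adgre1 (22.1 units), Mertk (12.8), Fcgr1 (17.8), Marco (20.2) and Add2 (14.7) were under the background limit on that array. Hba-a1 and Alas2 lay above every control on the normalized scale alone, since their deposited signals were below those of control 3. NK markers above every control numbered 6, 5 and 6 of 11 in arrays 1, 2 and 3, against 23.9%, 23.2% and 26.4% of all genes. The 6 in array 1 include Klrk1 (9.4 units) and Eomes (4.6), which were under the background limit. With arrays 2 and 3 left out, Usp18 in array 1 differed from the controls by 1.08 (adjusted p = 0.370 from limma). In that comparison 5 members were higher at an unadjusted p under 0.05, where 6.37% of all genes were, and the lone array was assumed to vary like the controls. Neutrophil markers lay above the controls in array 3 alone (1.41, against -0.25 to 0.35 in controls), with a summed signal of 77312.9 to 149440.5 units in the arrays labelled Klf4-deficient and 76273.6 to 106088.6 units in controls. Of the 13 measured, 0 had groups that did not overlap, and Mmp8 was under the limit on every array. NK markers had 4 of 11 higher without overlap (5.48% of all genes), Nkg7, Klrd1, Ccl5 and Ctsw, and 0 lower (6.09%). The difference was above 0 for 6 of the 11 and below 0 for 4. The median of the NK markers was 0.30, 0.00 and 0.58 in arrays 1, 2 and 3 labelled Klf4-deficient, against 0.00 to 0.02 in controls. In array 2 this median fell on markers whose signal was below 0, while the 4 without overlap lay above every control there. The summed signal of the NK markers was 2674.3 to 3554.4 units in the arrays labelled Klf4-deficient, against 2167.3 to 3140.6 units in controls, with Klrk1, Ncr1, Gzmb and Eomes under the limit. Plasmacytoid dendritic cells are known as strong producers of type I interferon. Their markers had 0 of 10 without overlap and medians of -0.03 to 0.00 in the arrays labelled Klf4-deficient, against -0.01 to 0.09 in controls. Summed they gave 5117.5 to 6146.3 units in the arrays labelled Klf4-deficient, against 5468.9 to 7723.2 units in controls, with Ccr9, Klk1 and Cd209d under the limit. B cell markers had 0 of 7 without overlap, with a median difference of 0.09 and Pax5 under the limit. Their summed signal was 581.7 to 817.1 units in the arrays labelled Klf4-deficient, against 692.2 to 916.6 units in controls. Markers of the sorted double-positive T cells had a median difference of -0.09. Without overlap 0 of 14 were higher (5.48% of all genes) and 1 lower (6.09%). The part of these cells in the members' differences was not tested.

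**Figure D5:**
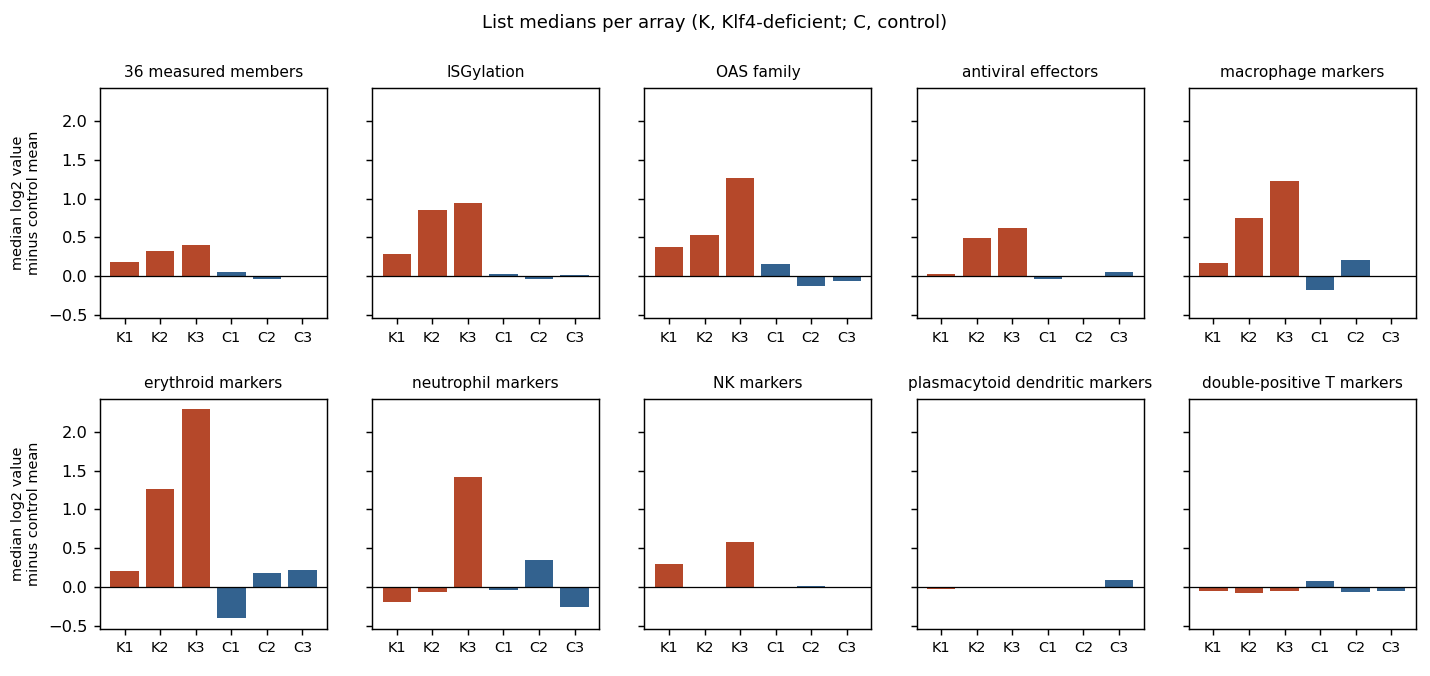
Median of each list on each array, as log2 value relative to the control mean, for the members, 3 of their role groups and 6 lists of cell type markers; K1 to K3 are the arrays labelled Klf4-deficient and C1 to C3 the controls. The macrophage median is 0.17, 0.75 and 1.23 in K1 to K3, the erythroid median 0.21, 1.26 and 2.29, and the members' median 0.18, 0.32 and 0.40.

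Genes upstream of the members in the pathway had medians near 0. Among 8 measured genes of the receptor and its signal, 0 passed when adjusted over all genes, and their median was -0.03. At an unadjusted p under 0.05, 1 was higher, against 3.51% of all genes, and 0 lower. Without overlap 2 were higher, Irf9 and Irf7, against 5.48% of all genes, and 0 lower. On the deposited scale Irf7 overlapped, with 63.3 units in array 1 labelled Klf4-deficient and 63.8 units in control 1. Irf9, the DNA-binding part of the complex, had 531, 550.1 and 492.6 units in the arrays labelled Klf4-deficient, against 373.9, 282.7 and 364.6 units in controls. As with Usp18, the 3 arrays labelled Klf4-deficient were similar and above every control (0.72 ± 0.09 SE, adjusted p = 0.312 from limma). Irf7, the factor that amplifies interferon production, differed by 0.53 ± 0.21, and Socs1, an inhibitor of the receptor's kinases, by -0.17 ± 0.19. The receptor chain Ifnar2 and the kinases Jak1 and Tyk2 differed by -0.01 ± 0.13, -0.06 ± 0.20 and -0.05 ± 0.13. Ifnar1 was dim on all arrays. Among 12 measured genes that detect nucleic acid or relay that signal, 0 passed, and the median was 0.03. At an unadjusted p under 0.05 and without overlap, 1 was higher, against 3.51% and 5.48% of all genes, and 0 lower. The gene was Trex1, which degrades cytosolic DNA (0.23 ± 0.04). Tlr7, a receptor for single-stranded RNA, differed by 0.46 ± 0.28 and Ddx58, which encodes RIG-I, by 0.24 ± 0.17.

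Other interferon-induced genes, outside the list, were counted in the same way. Of 28 measured, 0 passed when adjusted over all genes, and 5 were higher at an unadjusted p under 0.05, against 3.51% of all genes, with 0 lower. Without overlap 6 were higher, against 5.48% of all genes, and 0 lower, and the median was 0.14. Both counts include Ifi204, which was under the background limit on every array. On the deposited scale Ifi204, Ifi47 and Ly6e did not keep groups without overlap. Ifi27l2a, which encodes a small membrane protein, had 117.1, 202.5 and 256.4 units in the arrays labelled Klf4-deficient, against 56.8, 66.5 and 73.5 units in controls, and all 3 lay above every control (1.38 ± 0.34 SE, adjusted p = 0.491 from limma). Gbp3, a guanylate-binding protein, had 270.9, 346.3 and 202.1 units in the arrays labelled Klf4-deficient, against 157, 175.7 and 192.4 units in controls (0.67 ± 0.17 SE, adjusted p = 0.494). The GTPase Ifi47 differed by 0.34 ± 0.10. Of the members and these other lists together, the genes with the 2 smallest p were Usp18 and Irf9, and neither passed when adjusted over all genes. Ranking by p favours genes that vary little within a group. The similar levels of Usp18 and Irf9 in the 3 arrays labelled Klf4-deficient therefore follow in part from this choice.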

How the data were processed

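RNA of 6 sorted samples was measured on Illumina arrays. The deposited table holds linear bead intensity from BeadStudio, per the submitters' processing notes, with array medians of 8.1 to 9.2 units. Whether it was normalized between arrays, and how background was subtracted, is not given in the sources used here. Any value below 0 was set to 0, 16 was added, and log2 values were quantile normalized. For each of 19057 genes with 1 symbol the brightest probe was used, a choice for 9172 genes; 18 probes with several symbols and 10378 unnamed ones were left out. A probe counted as above background past 3 SDs of the negative values mirrored around 0 (21.9 to 23.7 units). Group differences came from limma 3.58.1 in R 4.3.3 (eBayes with a variance trend), adjusted by Benjamini-Hochberg over all genes at 0.05, and were checked on simulated data. With 3 arrays a group the smallest two-sided exact permutation p is 0.1, so no such test was used. The number of arrays limits precision. Members and lists were chosen with earlier results of these data known, so they are no independent support. Isg15, Usp18 and up to 3 members per role group with the smallest unadjusted p, above background on all arrays of a group, are given array by array; other lists follow the same rule. Promoters are from RefSeq. Alternatives covered normalization, offset, filters, moderation, a replicate block, the choice of probes and leaving out arrays.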

Additional observations from a re-analysis of the deposited data

How the results depend on the processing

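The count of 0 members past the adjusted threshold was the same in all 19 alternatives run with limma. The 18 members given gene by gene kept their direction in each of 18 alternatives, and none passed in any of them. The number of members higher without overlap was 18 (5.48% of all genes) and ran from 12 with no normalization between arrays (3.09%) to 22. The 22 arose without array 1 labelled Klf4-deficient (11.2%) and without arrays 2 and 3 (23.9%), where fewer arrays make overlap rarer. The number higher at an unadjusted p under 0.05 was 15, from 7 to 17 when 1 array was left out, and 5 with arrays 2 and 3 labelled Klf4-deficient left out together. The median of 0.35 was 0.26 with no normalization, 0.46 with an offset of 1, 0.27 with probes averaged per gene and 0.15 over every probe, many of them dim. It was 0.18 with arrays 2 and 3 labelled Klf4-deficient left out, and from 0.27 to 0.39 when 1 array was left out. With genes above background or the brighter genes alone it was 0.49 over 30 members, which is not read as support, since members can enter through 1 group. No label says that replicate numbers pair the samples, and same-numbered deviations correlated at 0.135, -0.0407 and -0.0661. With the replicate number as a block, 13 members were higher at an unadjusted p under 0.05 (3.32% of all genes). In that limma fit 0 passed, and Usp18 had an adjusted p of 0.687. Not every array correlated best with its own number: array 3 labelled Klf4-deficient did so with control 2 (0.171). Signal over background limits Ifih1, Oas1a, Mx1, Ifit1 and Xaf1, for which no change could be measured.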
